A study of Mus musculus with 7 samples.

Results

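The genes described here encode 9 enzymes that methylate lysines of histone H3 and 1 targeting subunit: Kmt2a, Kmt2b, Kmt2c, Kmt2d, Setd1a and Setd1b for lysine 4 (H3K4), Cxxc1 as the subunit that brings SETD1 complexes to DNA, Setd2 for lysine 36 (H3K36), and Setdb1 and Ehmt2 for lysine 9 (H3K9). They were chosen by gene symbol, and all 10 were found among the 26019 gene rows of the deposited table. Their RNA was measured with Smart-Seq2 (whole-transcript cDNA from a few cells) in pools of 5 oocytes taken from secondary follicles of C57BL/6J mice, in which granulosa cells surround the growing oocyte. The libraries fall into wild type (WT, n = 4) and knockout (KO, n = 3). The series is about mitofusin 2, a protein that fuses mitochondria, and its title and design name Mfn2 as the deleted gene, whereas the genotype label of the KO libraries reads Mfn1-/-. Age is given as 8 weeks in the protocol and as P1 in the labels. The mice carry no stated treatment, and the sources used here do not give the promoter that drove the deletion. They do not say which mice went into which library either, so the p-values reflect the spread among libraries, which may be technical. In pooled cells, less RNA per cell and fewer cells of a type cannot be told apart.

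Methylation of H3K4 marks promoters and enhancers. In mammals much of it is laid down by 6 related enzymes, which work in complexes with the shared subunits WDR5, RBBP5, ASH2L and DPY30. KMT2A and KMT2B act at selected promoters, KMT2C and KMT2D mainly at enhancers, and SETD1A and SETD1B at active promoters, where CXXC1 recognises unmethylated CpG. SETD2 follows elongating RNA polymerase and trimethylates H3K36, a mark that guides DNA methylation in the growing oocyte. SETDB1 and EHMT2 (G9a) deposit repressive H3K9 methylation on retrotransposons and silent genes, and KMT2B, CXXC1, SETD2, SETDB1 and EHMT2 have each been studied by deletion in mouse oocytes.

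The promoters of the least and the most abundant of the 6 H3K4 enzymes are shown to set their CpG content side by side, since CpG is what the CXXC domain binds. RefSeq sequences of GRCm38.p6, from 250 bases before to 50 after a transcript start, were used for 7 of the 10 genes. Kmt2b and Setd1b had no window there, and Cxxc1 was left out. Capitals mark every CG pair, each of which reads the same on both strands. The Kmt2a window (chr9:44881240-44881539, minus strand) holds 36 CG pairs, and the Kmt2c window (chr5:25498734-25499033, minus strand) holds 56.
Kmt2a: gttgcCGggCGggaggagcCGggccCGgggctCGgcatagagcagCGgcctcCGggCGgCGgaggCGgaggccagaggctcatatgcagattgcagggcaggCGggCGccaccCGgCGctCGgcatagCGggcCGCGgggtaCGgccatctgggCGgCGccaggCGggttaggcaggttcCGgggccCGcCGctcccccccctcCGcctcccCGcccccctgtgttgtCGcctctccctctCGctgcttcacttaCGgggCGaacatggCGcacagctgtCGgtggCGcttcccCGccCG
Kmt2c: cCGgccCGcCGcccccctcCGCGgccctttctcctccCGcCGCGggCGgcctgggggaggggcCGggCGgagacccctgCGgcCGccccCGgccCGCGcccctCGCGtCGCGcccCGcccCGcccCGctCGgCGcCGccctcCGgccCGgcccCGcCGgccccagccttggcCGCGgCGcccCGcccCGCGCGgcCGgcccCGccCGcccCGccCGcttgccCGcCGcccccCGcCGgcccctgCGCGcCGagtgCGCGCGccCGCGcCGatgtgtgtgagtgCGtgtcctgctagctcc
Of 32851 promoter windows in that table, whose median is 7 CG pairs, 6.23% hold at least as many as Kmt2a and 0.195% at least as many as Kmt2c. The 8 windows of the 7 genes used, Cxxc1 not among them, hold between 15 CG pairs (Setdb1) and 56 (Kmt2c), all above that median.

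The values are normalised counts: each library's gene counts were divided by its size factor. The factors lay between 0.914 and 1.10, and recovered totals between 6676076 and 8343915 reads per library, so 1 normalised count stands for roughly 1 read. Mfn2 was at 35.3, 35.1, 15.0 and 29.2 in WT and 7.27, 4.55 and 7.66 in KO (limma adjusted p = 0.00571), and Mfn1 was at 289 ± 36.3 (SD, n = 4) and 330.3 ± 19.9 (SD, n = 3; limma adjusted p = 0.499). Thus the gene of the title, and not that of the genotype label, was lower in KO. Oocyte markers were abundant in all libraries (summed level of 13 of 14 listed genes 186375 to 247428 in WT and 213492 to 333711 in KO). Of these 13 genes, 8 were fitted above 0 and 5 below, with a median log2 fold change of 0.11. In limma 4 had an unadjusted p under 0.05, all higher in KO, beside 21.8% of all genes. After adjustment limma called 0, whereas edgeR and DESeq2 each called Figla, Nlrp5 and Zp2. Figla was at 869 ± 89.6 in WT and 1222 ± 224 in KO (limma adjusted p = 0.0514). The summed level of 17 granulosa markers was 460.3 to 521 in WT, 554 in KO 1, 934 in KO 2 and 877 in KO 3. In WT much of that sum came from Nr5a2 (162 to 192) and Cyp19a1 (151 to 218). In KO these were at 172 to 207 and 50.0 to 98.1. Of 14 granulosa markers tested, 12 were fitted above 0 and 2 below, with a median log2 fold change of 1.62 beside -0.01 for all genes. At an unadjusted p under 0.05 there were 10 higher and 1 lower, beside 21.8% of all genes. After adjustment limma called Krt8 higher and Cyp19a1 lower, and edgeR called Inha and Gatm higher as well. Inhbb was at 0 in every WT library and Amh in 3 of them. Of the 12 theca, stroma and endothelium markers 7 had a row (summed 157 to 222 in WT and 152 to 212 in KO). Of the 8 immune markers 6 had a row (541 to 578 in WT and 187 to 275 in KO, nearly all of it C1qb).

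Compared per kilobase of exon, the genes spanned a wide range of levels in WT oocytes. Setdb1 was the most abundant, with 87.8 ± 10.8 normalised counts per kilobase (SD, n = 4), followed by Setd2 with 48.9 ± 4.19 and Kmt2c with 32.7 ± 1.58. Cxxc1 had 25.8 ± 1.60, Setd1a 15.8 ± 2.44 and Kmt2b 14.8 ± 3.34. Kmt2d (6.14 ± 0.982), Setd1b (3.36 ± 0.578) and Ehmt2 (3.29 ± 1.75) were lower, and Kmt2a was last with 0.105 ± 0.0274. Neighbours in this order did not overlap between their WT libraries, except Setd1a with Kmt2b and Setd1b with Ehmt2, whose ranges overlapped. In the annotation 50.8% of the 75-base stretches of Setd1a also belong to Gm49388, an overlapping gene with no row in the table. How reads shared by them were counted is not stated, so the level of Setd1a, its place in this order and the shares given next are uncertain. Among tested genes with a known exon length, 78.0% had a lower level per kilobase than Setdb1 and 0.809% a lower one than Kmt2a.

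**Figure D1:**
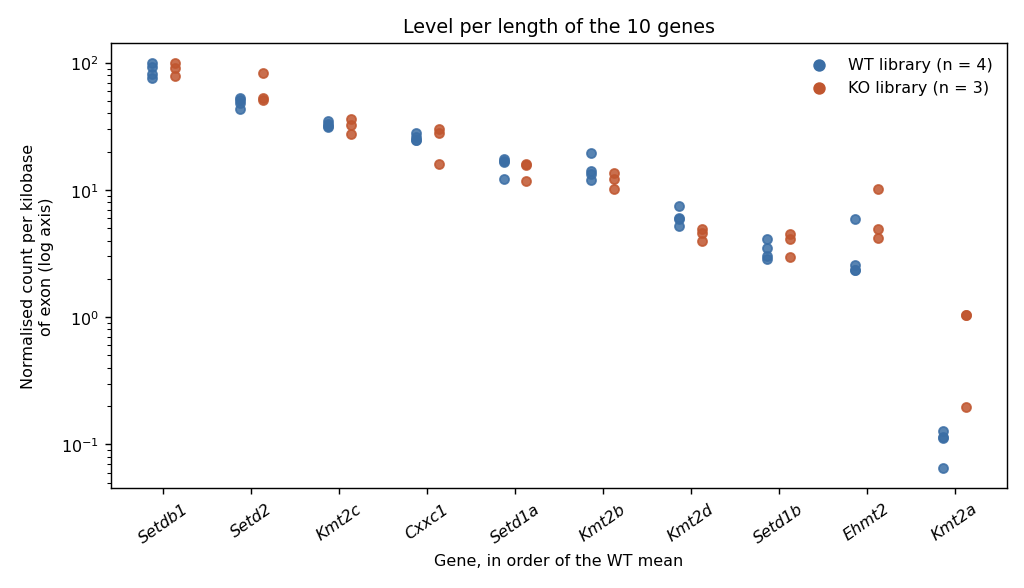
Level per length of the 10 genes. Points are libraries (WT blue, KO orange), the vertical log axis gives normalised counts per kilobase of exon, and the genes are ordered by their WT mean, from Setdb1 (87.8) to Kmt2a (0.105).

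Within the H3K4 enzymes, Kmt2c had the highest counted level per length. It made up 41.3% to 49.7% of the summed level per kilobase of the 6 genes in WT and 41.5% to 55.2% in KO. Setd1a (19.0% to 24.3% in WT) and Kmt2b (18.6% to 24.3%) came next, and Kmt2d took 8.06% to 9.31% in WT and 6.07% to 6.97% in KO. Kmt2a took 0.0902% to 0.178% in WT and 0.303% to 1.55% in KO. The sum over the 6 genes was 64.1 to 80.6 normalised counts per kilobase in WT and 65.1 to 71.3 in KO, so its groups overlapped.

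Between KO and WT, Kmt2a rose and the other 9 genes did not pass the test (limma on log2 of the normalised count plus 1, Benjamini-Hochberg adjusted p under 0.05 over 19227 tested genes). All 10 genes passed the low-value filter (1 or more in 3 or more libraries), and Kmt2a had at least 1 in every library. Across all tested genes 6.71% were called, 3.09% higher and 3.63% lower in KO, so 1 of 10 is near the background. The median log2 fold change of the 10 genes was -0.0017, beside -0.01 for all genes tested, with 5 fitted above 0 and 5 below. KO and WT libraries did not overlap for 2 genes, Kmt2a (higher in KO) and Kmt2d (lower in KO), while 19.2% of all tested genes did not overlap (9.37% higher and 9.83% lower in KO). At an unadjusted p under 0.05 there were 3 (Kmt2a, Ehmt2 and Kmt2d), beside 21.8% of all genes.

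**Figure D2:**
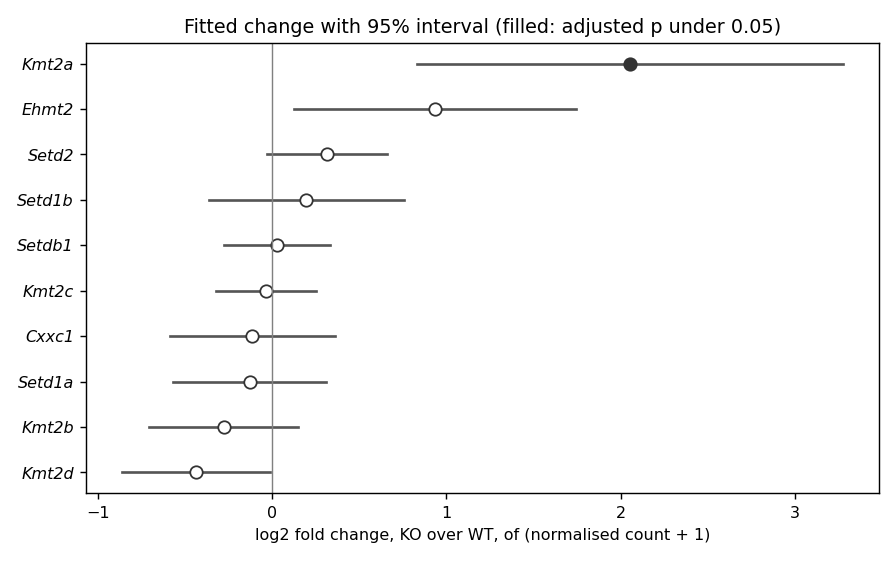
Fitted log2 fold change of each gene, KO over WT, on the horizontal axis, with its 95% interval as a line. The filled point, Kmt2a, is past the threshold, and the intervals of Ehmt2 and Kmt2d also lie to 1 side of 0 before adjustment over all genes.

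Kmt2a (ENSMUSG00000002028.13; GRCm38 chromosome 9, 44803355 to 44881296, minus strand) encodes MLL1, which maintains expression of developmental genes such as the Hox clusters. Its normalised counts were 1.91, 2.13, 1.87 and 1.08 in WT and 17.3, 17.3 and 3.28 in KO. KO 1 and KO 2 stood well above every WT library, and KO 3 lay just above the highest of them. In recovered reads these values were 2, 2, 2 and 1 in WT and 19, 19 and 3 in KO. The log2 fold change was 2.05 (SE 0.59; limma adjusted p = 0.0392), with a 95% interval of 0.83 to 3.27 on the log2 scale of the count plus 1. Pooled over libraries, 41 reads in KO against 7 in WT gave a rate ratio of 7.36 (95% exact interval 3.27 to 19.4, counting error only). Adjusted p was 0.0190 in edgeR and 0.0213 in DESeq2, which called 6.53% and 7.67% of the 19227 tested genes. DESeq2 gave an adjusted p for only 15126 of these, so its share among genes it could call is higher. Omitting any 1 of the WT libraries, KO 1 or KO 2 ended the call (limma adjusted p up to 0.181), whereas omitting KO 3 gave 0.00957. A pseudocount of 0.5 (0.0501), the omission of both KO 2 and KO 3 (0.160) and a covariate made of the granulosa marker mean (log2 fold change 2.60, adjusted p = 0.749) ended it too. With that covariate 1 of the 19227 tested genes was called, so no call named here was kept in that fit. Kmt2a was at 17.3 in KO 1, 17.3 in KO 2 and 3.28 in KO 3, whose granulosa marker sums were 554, 934 and 877. Whether the granulosa markers account for the Kmt2a difference was not tested.

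**Figure D3:**
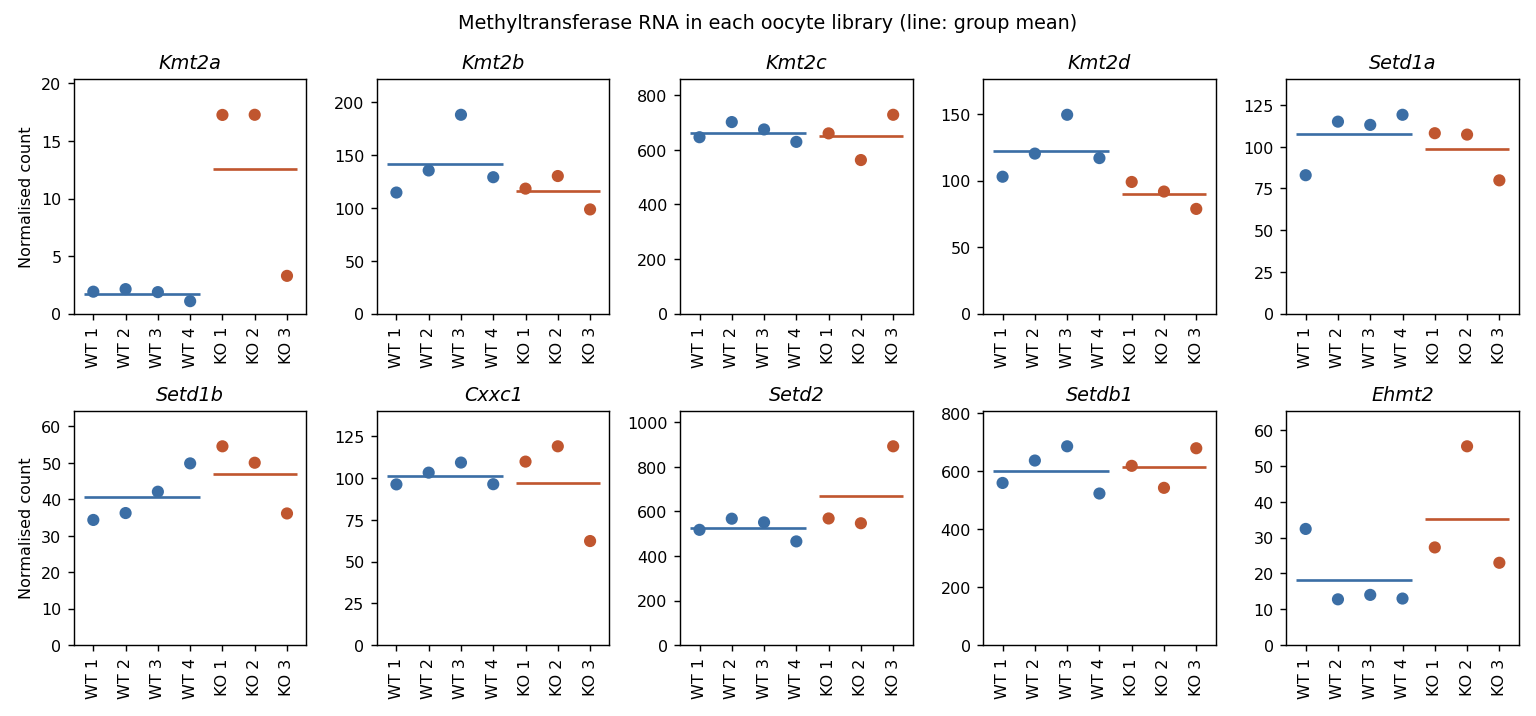
Normalised count of each gene in each library, on a linear vertical axis from 0 that differs between panels. Points are libraries and lines are group means. Kmt2a is at 17.3 in KO 1 and KO 2 and at 1.08 to 3.28 in the other 5 libraries, while Kmt2c and Setdb1 vary little between the groups.

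Kmt2b, the closest relative of Kmt2a and the main H3K4 trimethylating enzyme described in oocytes, was far better covered. It had 114, 135, 188 and 129 normalised counts in WT and 118, 130.0 and 98.5 in KO. WT 3 was the highest and KO 3 the lowest of the 7 libraries, and the groups overlapped. The log2 fold change was -0.28 (SE 0.21; limma adjusted p = 0.470), with a 95% interval of 0.614 to 1.11 on the fold scale. It was -0.13 without WT 3 and -0.17 without KO 3. Kmt2b lies on chromosome 7 (30568858 to 30588726, minus strand).

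The enhancer-directed pair differed in their values. Kmt2c (chromosome 5, 25271798 to 25498783, minus strand) had 646, 702, 675 and 629 normalised counts in WT and 660.5, 563 and 729 in KO, so KO held both the lowest and the highest library. Its log2 fold change was -0.03 (SE 0.14; limma adjusted p = 0.920), and the 95% interval ran from 0.80 to 1.19 on the fold scale. Kmt2d (chromosome 15, 98831669 to 98871204, minus strand) had 103, 120.4, 149.5 and 117 in WT and 99.0, 91.8 and 78.8 in KO. Every KO library lay below every WT library, with KO 1 only slightly below WT 1. The log2 fold change of Kmt2d was -0.44 (SE 0.20), a 95% interval of 0.552 to 0.991 on the fold scale, and it did not pass over all genes (limma adjusted p = 0.214). Whether Kmt2c and Kmt2d differed in their response was not tested.

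The SETD1 branch showed no call. Setd1a (chromosome 7, 127776670 to 127800122, plus strand) had 82.9, 115, 113 and 119 normalised counts in WT and 108, 107 and 79.9 in KO, with WT 1 and KO 3 both low. Its log2 fold change was -0.13 (SE 0.21; limma adjusted p = 0.785). Setd1b (chromosome 5, 123142193 to 123168629, plus strand) had 34.3, 36.2, 42.1 and 49.8 in WT and 54.5, 50.0 and 36.1 in KO. KO 1 and KO 2 were just above WT 4, and KO 3 was within the WT range (log2 fold change 0.20, SE 0.27; limma adjusted p = 0.729). That value was 0.079 without KO 1 and 0.37 without KO 3.

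Cxxc1 (chromosome 18, 74216131 to 74221491 in the table, plus strand), the CpG-binding subunit of SETD1 complexes, was tight in WT and wide in KO. It had 96.3, 103, 109 and 96.4 normalised counts in WT and 109.9, 119 and 62.4 in KO. KO 1 and KO 2 were the highest of all libraries and KO 3 the lowest. The log2 fold change was -0.11 (SE 0.23; limma adjusted p = 0.824), and it was 0.18 without KO 3. The 95% intervals of Setd1a, Setd1b and Cxxc1 on the fold scale were 0.676 to 1.24, 0.778 to 1.69 and 0.666 to 1.28.

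Setd2 (chromosome 9, 110532597 to 110618633, plus strand), the H3K36 trimethylating enzyme, had 518, 568, 551 and 466 normalised counts in WT and 569, 547 and 893 in KO. KO 3 stood far above the other 6 libraries, among which KO 1 and KO 2 lay near the top of the WT range. The log2 fold change was 0.32 (SE 0.17; limma adjusted p = 0.276), with a 95% interval of 0.981 to 1.58 on the fold scale. It was 0.09 without KO 3, so 1 library carried most of the difference.

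The H3K9 enzymes differed in level and in spread. Setdb1 (chromosome 3, 95323525 to 95357202, minus strand), which KAP1 (Trim28) recruits to retrotransposons, had 560, 637, 686 and 523 normalised counts in WT and 619, 543 and 679 in KO. The groups covered nearly the same range (log2 fold change 0.03, SE 0.15; limma adjusted p = 0.933; 95% interval 0.828 to 1.26 on the fold scale). Of its exon bases 4.73% overlap other genes of the table, Cers2 among them. Ehmt2 (chromosome 17, 34898469 to 34914052, plus strand), the H3K9 dimethylating enzyme G9a, had 32.4, 12.8, 14.0 and 13.0 in WT and 27.3, 55.5 and 23.0 in KO. WT 1 lay apart from the other WT libraries and within the KO range, and KO 2 was the highest. Its log2 fold change was 0.93 (SE 0.39; limma adjusted p = 0.159), with a 95% interval of 1.09 to 3.35 on the fold scale before adjustment. It was 0.56 without KO 2 and 1.24 without WT 1. The granulosa marker sum was 521 in WT 1, 460.3 to 462 in the other WT libraries, and 554, 934 and 877 in KO 1, KO 2 and KO 3. Ehmt2 was higher in WT 1 than in KO 1 and KO 3. With the mean of those markers in the model, the log2 fold change of Ehmt2 was -0.22 (limma adjusted p = 0.975). Its SE was 0.67 in that fit, against 0.39 without the covariate. Whether the granulosa markers account for the Ehmt2 difference was not tested.

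Seen by library, KO 3 was the highest or the lowest of the 7 for 6 of the 10 genes. It was highest for Kmt2c and Setd2 and lowest for Kmt2b, Kmt2d, Setd1a and Cxxc1. KO 2 and WT 4 were each at an end for 4 genes, WT 3 for 3, and KO 1 (Setd1b), WT 1 and WT 2 for 1 each. How often KO 3 was at an end over all tested genes was not counted, so this is not read as a trait of these genes. Relative to the WT mean on the log2 scale, KO 3 stood at 0.77 for Setd2 and -0.69 for Cxxc1, while KO 1 and KO 2 stood at 0.12 and 0.06 for Setd2 and at 0.12 and 0.23 for Cxxc1. KO libraries thus differed among themselves for these 2 genes by more than their group means differed from WT. That was not particular to them. Ehmt2 stood at 0.68, 1.68 and 0.44 in KO 1 to KO 3 (log2 fold change 0.93), and Setd1b at 0.43, 0.31 and -0.15 (0.20). Kmt2d, at -0.29, -0.40 and -0.62 (-0.44), went the other way.

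**Figure D4:**
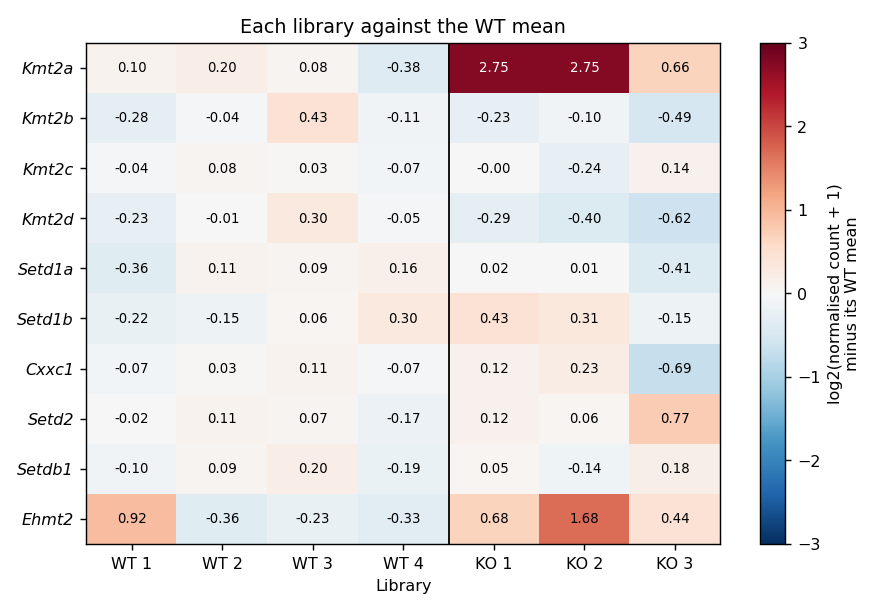
Difference of each library from the WT mean in log2(normalised count + 1), by gene (rows) and library (columns), red above and blue below. Kmt2a in KO 1 and KO 2 (2.75 each) and Ehmt2 in KO 2 (1.68) are the strongest values, and KO 3 shows opposite signs for Setd2 and Cxxc1.

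The partners and opponents of these enzymes were examined next. Of 75 tested genes in 9 other histone methylation lists, 4 rose and 1 fell, which is 6.67% beside 6.71% of all genes, and their median log2 fold change was 0.07. Of 14 subunits of H3K4 methyltransferase complexes 0 were called by limma, 0 by edgeR and 0 by DESeq2. In limma 2 of the 14 had an unadjusted p under 0.05, beside 21.8% of all genes. The smallest p among them was that of Hcfc2, a host cell factor of the KMT2 complexes (50.7 ± 7.19 normalised counts in WT and 84.6 ± 17.2 in KO; limma adjusted p = 0.0729). Of 5 further H3K4 methyltransferases tested, Smyd2, which methylates lysines of several proteins, rose (76.4 ± 18.3 and 132 ± 28.0; limma adjusted p = 0.0408). Omission of WT 1, WT 3, WT 4, KO 2 or KO 3 ended that call. On its exons, 30.0% of bases overlap Gm37422 on the other strand, and the library kit does not mark strand.

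Of 7 H3K4 demethylases 1 rose, beside 3.09% of all tested genes called higher in KO. Kdm1b, which removes H3K4 methylation in growing oocytes so that imprints can be set, had 1367, 1132, 1262 and 1540.2 normalised counts in WT and 1622.5, 2418 and 2302 in KO. All KO libraries lay above all WT libraries, KO 1 only slightly (log2 fold change 0.66, SE 0.15; limma adjusted p = 0.0108). Such a separation upwards held for 9.37% of all tested genes. Adjusted p was 0.0624 without KO 2 and 0.578 without both KO 2 and KO 3, and the log2 fold change was 0.17 with the granulosa covariate (adjusted p = 0.942). Kdm1b shares 9.19% of its exon bases with Dek on the other strand.

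On the H3K36 side, 0 of 6 further methyltransferases and 0 of 5 demethylases were called by limma, edgeR or DESeq2. At an unadjusted p under 0.05 in limma there were 2 and 0, beside 21.8% of all genes. Nsd1, the H3K36 dimethylating enzyme, had 323 ± 30.6 normalised counts in WT and 237 ± 24.3 in KO and did not pass (limma adjusted p = 0.0975). The smallest p among the demethylases was that of Kdm4c (7.60 ± 3.67 and 13.6 ± 6.35; adjusted p = 0.355). Among 11 genes whose products read H3K36 methylation or act with such readers, 1 rose and 1 fell. Of all tested genes 3.09% were called higher and 3.63% lower in KO. Morf4l1 (MRG15, a chromodomain reader) had 360 ± 52.0 and 526 ± 67.2 (adjusted p = 0.0383), and dropping WT 1, WT 2, WT 3 or KO 2 ended its call. Of its exon bases 15.4% overlap Gm26882. Dnmt3l, the cofactor of de novo DNA methylation in oocytes, had 687, 571, 598 and 763 in WT and 549, 287 and 307 in KO. KO 1 lay just under the lowest WT library and KO 2 and KO 3 far below (log2 fold change -0.83, SE 0.20; limma adjusted p = 0.0173). Omitting WT 4, KO 2 or KO 3 ended the call, and the granulosa marker sums of KO 2 and KO 3 were the highest of the 7 libraries. With those markers as a covariate the log2 fold change of Dnmt3l was -0.32 (adjusted p = 0.912). That fit called 1 of the 19227 tested genes. Whether the granulosa markers account for the Dnmt3l difference was not tested.

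On the H3K9 side, 1 of 13 partners and readers rose, beside 3.09% of all tested genes called higher in KO. Zfp644, a zinc finger partner of the EHMT2 complex, had 165, 171, 150.5 and 173 normalised counts in WT and 317, 398 and 421 in KO. The KO libraries were all far above the WT range, at 2.27-fold on the fitted scale (log2 fold change 1.19, SE 0.17; limma adjusted p = 0.000415). No omission of a single library ended this call (adjusted p up to 0.00317). The omission of both KO 2 and KO 3 did, and so did the granulosa covariate, with which the log2 fold change was 0.98 (adjusted p = 0.573). Of 7 further H3K9 methyltransferases and 7 demethylases 0 were called by limma, edgeR or DESeq2. At an unadjusted p under 0.05 in limma there were 2 and 1, beside 21.8% of all genes. The smallest p values belonged to Prdm2 (65.2 ± 7.24 and 41.0 ± 5.65; adjusted p = 0.105) and Kdm4d (4.92 ± 2.53 and 11.8 ± 3.99; adjusted p = 0.163).

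**Figure D5:**
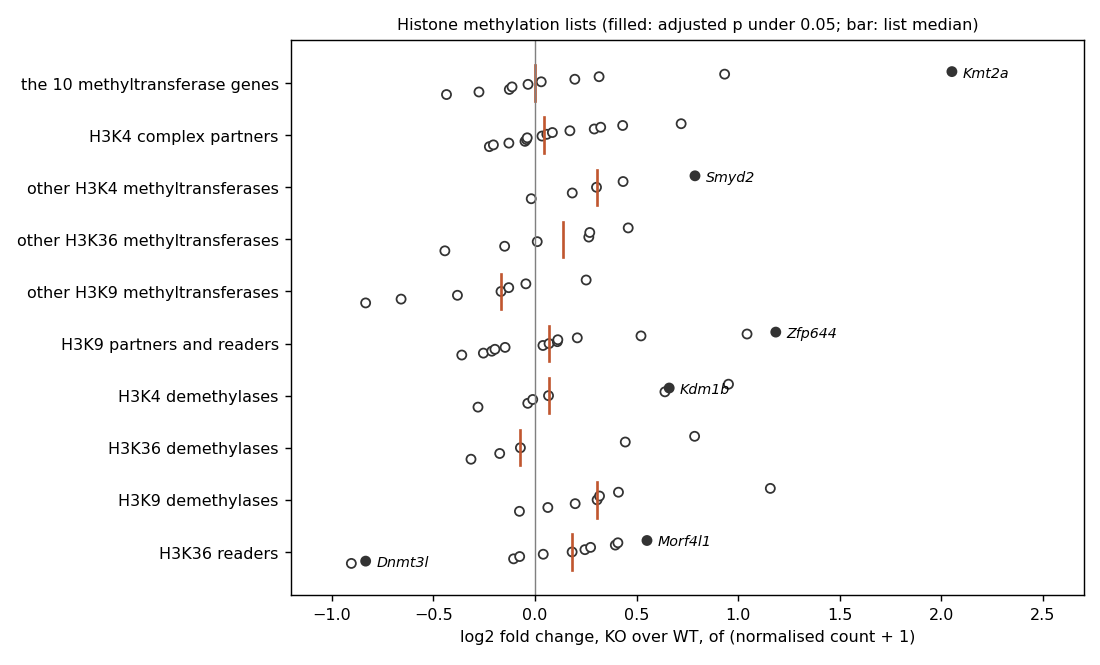
Log2 fold change, KO over WT, of each tested gene (points) in the 10 methyltransferase genes and the 9 other lists (rows), with the list median as a bar. Filled and labelled points, 6 in all, are past the threshold: Kmt2a, Smyd2, Zfp644, Kdm1b and Morf4l1 above 0 and Dnmt3l below.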

How the data were processed

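RNA was measured in 7 libraries (4 WT, 3 KO), grouped by their titles. The deposited table gives 1 signal value per gene and library. Per the submitters' processing notes, cutadapt, FastQC, STAR, DESeq and DESeq2 were used with GRCm38 (mm10), with no counter named. These signal values, deposited by the authors, are counts per gene over a size factor for each library. After division by the recovered step, 100% of values up to 1000 reads lay within 0.05 of a whole read, and at least 99.9% of all values did.

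Groups were compared with limma 3.58.1 (R 4.3.3), with trend and robust variance on log2(value + 1), over the 19227 genes that reached 1 in 3 or more libraries, adjusted over all of them. edgeR (4.0.16) called 1255 genes and DESeq2 (1.42.0) called 1474 on the recovered reads. The limma and edgeR fits were tested on simulated data. Changes were placed there only in better covered genes, so that test does not bear on calls at the level of Kmt2a. Fold changes on the log2(value + 1) scale understate the change of low genes. Exon lengths, ends and overlaps came from GENCODE M21, matched by name for 24731 rows, and promoters from RefSeq GRCm38.p6. Printed gene ends are the table's stop minus 1 base, which is the annotation end of each named gene except Cxxc1 and Krt8.

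The members and lists were chosen with earlier results of these data known. Named genes are all members, Mfn1 and Mfn2, and of each other list its called genes, or the gene with the smallest p where none was called. Among the markers, Nlrp5, Zp2, Inha and Gatm are mentioned as calls of edgeR or DESeq2. Inhbb, Amh and Nr5a2 are examples chosen outside that rule. Alternatives were edgeR, DESeq2, pseudocounts of 0.5 and 5, filters of none or at least 10, quantile normalisation, omitted libraries, a granulosa covariate and a replicate block.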

Additional observations from a re-analysis of the deposited data

Results flagged for a closer look

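Among the 10 methyltransferase genes, the WT group of Ehmt2 held a library apart from the rest: WT 1 had 32.4 normalised counts, against 12.8 to 14.0 in WT 2 to WT 4. WT 1 was apart for Setd1a too, at 82.9 against 113 to 119. In both cases the gap to the nearest library, divided by the range of the group (0.937 and 0.833), was above Dixon's critical value for 4 samples. Of 27 named genes whose WT group was examined 2 met this, and chance flags about 1 group in 20. Groups of 3 were not examined.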

How the results depend on the processing

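The number of methyltransferase genes called was 1, and it was 0 with a pseudocount of 0.5, with a minimum of 10 in 3 libraries (which removes Kmt2a from the test), without both KO 2 and KO 3, with a covariate of mean granulosa marker level and with the replicate block, and 0 to 1 with libraries left out 1 at a time. Over all genes, 1291 calls became 604 to 1772 with libraries left out 1 at a time, 130 without both KO 2 and KO 3, and 1 with the granulosa covariate. That fit with 1 KO library takes its spread from the WT libraries. With the granulosa covariate, log2 fold changes turned sign for Cxxc1 (0.099), Ehmt2 (-0.22), Kmt2c (0.081) and Setd1a (0.29). Without both KO 2 and KO 3 they did so for Cxxc1 (0.12) and Setd1a (0.022). Leaving out 1 library gave -0.29 to 0.18 for Cxxc1, -0.12 to 0.066 for Kmt2c, -0.25 to 0.016 for Setd1a and -0.046 to 0.12 for Setdb1. The cause was not tested. Same-numbered WT and KO libraries did not deviate together (r across genes -0.12, 0.026 and 0.022). Whether their mice shared a litter or a batch is not given and was not tested. The replicate block over replicates 1 to 3 called 1020 genes and gave -0.033 for Setdb1 and 1.92 for Kmt2a (adjusted p = 0.0697). Of 179 alternative fits of the 10 genes, 156 kept direction and side of the threshold, 10 lost the Kmt2a call and 13 turned sign, none of them past the threshold. Kmt2a, at 1 to 3 reads in 5 libraries, is limited by depth.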
